A study of Mus musculus with 32 samples.

Results

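The histone cluster genes were defined as the protein-coding genes whose symbols begin with Hist1h, Hist2h, Hist3h or Hist4h, and 67 of the 54532 genes in the expression table met this rule. They comprised 6 genes for the linker histone H1 and 61 genes for the core histones, of which 18 encode H2A, 18 encode H2B, 12 encode H3 and 13 encode H4. Cluster 1 on chromosome 13 held 54 of them, cluster 2 on chromosome 3 held 10, cluster 3 on chromosome 11 held 2 and cluster 4 on chromosome 6 held 1. RNA sequencing covered auranofin-treated (AF) and vehicle-treated (V) wild-type C57/Bl6j mice that had all eaten a 60% high-fat diet for 12 weeks. Auranofin is a gold compound used against rheumatoid arthritis that inhibits thioredoxin reductase, and mice received 1 mg per kg body weight on 3 occasions weekly over 4 weeks, while controls received vehicle. Inguinal white fat (iWAT), epididymal white fat (eWAT), liver and brown fat (BAT) gave 4 AF and 4 V libraries each, 32 in all, and neither a lean group nor untreated mice were analysed here. The labels do not say whether the libraries of a group came from separate animals, so p-values measure only the spread between libraries.

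Core histones form the octamer around which DNA is wrapped, and linker histone H1 binds where DNA enters and leaves it. Most genes in these clusters are transcribed in S phase, when new DNA must be packaged, and their mRNAs end in a conserved stem-loop instead of a poly(A) tail. The stem-loop is bound by SLBP, which is needed for processing and translation, and the mRNAs are degraded when replication stops. Cells that no longer divide, such as adipocytes and most hepatocytes, rely on replication-independent variants outside the clusters and on polyadenylated transcripts of some cluster genes. In the tables used here a level is given in FPKM, fragments scaled to gene length in kilobases and to a library size set by the authors, so levels can be compared between genes of different length.

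The stem-loop could be read from the transcripts of 46 of the 67 genes (GENCODE M21, mm10), always after the stop codon. Anywhere in a transcript it was found in 68.7% of these genes and in 0.0229% of the other 21834 protein-coding genes. There were 8 versions of the 16-base element. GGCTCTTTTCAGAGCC was the most common, in 26 genes for H1, H2A, H2B and H3, and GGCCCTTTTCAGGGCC was found in 7 genes, all for H4. Examples from genes with the highest levels and from the less common versions follow as DNA of the coding strand, with the stem-loop in capitals. They show how little the element varies, and that the H4 examples differ from the others within the stem.
Hist1h4h, H4, chr13:23531453-23531478, plus strand: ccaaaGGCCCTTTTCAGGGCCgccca
Hist1h1c, H1, chr13:23739507-23739532, plus strand: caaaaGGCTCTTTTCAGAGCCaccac
Hist2h3c2, H3, chr3:96238480-96238505, minus strand: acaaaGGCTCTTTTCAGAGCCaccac
Hist1h4i, H4, chr13:22040961-22040986, minus strand: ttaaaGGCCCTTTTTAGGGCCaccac
Hist1h2bb, H2B, chr13:23747198-23747223, plus strand: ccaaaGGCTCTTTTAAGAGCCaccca
Hist1h4a, H4, chr13:23760795-23760820, minus strand: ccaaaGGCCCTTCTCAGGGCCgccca

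Genes were taken as detected at a mean of 0.5 FPKM or more over the 8 libraries of a tissue, and their annotated 3′ ends were longer on the whole than those of the others. The median gene length was 715.5 bases for detected genes and 520 bases for the others. A stem-loop was found in 23 of 28 genes detected in at least 1 tissue and in 23 of 39 not detected in any. Annotation ran on for 100 bases or more past the stem-loop in 16 of the 28 detected genes, against 7 of the 39 others. The median stretch after the stem-loop was 330 bases in detected genes and 46 bases in the others. Transcripts that stopped within 5 bases of the stop codon were annotated for 3 detected and 12 undetected genes, so reads from their 3′ ends could not be assigned to them. Hist1h2bc, the gene with the highest level, had no stem-loop in its annotated transcripts: its exon ended 9 bases after the stop codon and was spliced over an intron of 7554 bp to a second exon that holds the poly(A) signal AATAAA. Hist2h2be, an H2B gene known from mouse olfactory neurons, also had no match to the stem-loop in the 2192 bases annotated after its stop codon. Hist1h4h, by contrast, was annotated for only 46 bases past its stem-loop.

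Promoters of 62 of the genes were found in RefSeq (GRCm38.p6, 250 bases before to 50 bases after the start, 63 promoters), and they carried known histone promoter elements. The sequence CCAAT, searched on both strands, was present in 85.7% of the 63 promoters and in 37.4% of the 32851 promoters of all genes. It was found in every one of the promoters of H1, H2A, H2B and H3 genes matched, and in 25.0% of those of H4 genes. TATAAA was present in 55.6% of the promoters, against 13.6% of all. The octamer ATTTGCAT, a known element of H2B promoters, occurred in 41.2% of H2B and 38.9% of H2A promoters, against 1.74% of all, and in none of the promoters of the 3 other classes. AAACACA, a known element of H1 promoters, was present in 83.3% of the 6 H1 promoters and in 7.18% of all. TTTCCCGC, an E2F-type site, was found in 1.59% of the promoters and in 1.07% of all. The 150 bases before the start of Hist1h1c and Hist1h4h, the linker and H4 genes with the highest levels, show the contrast, with AAACACA and CCAAT in capitals.
Hist1h1c, chr13:23738657-23738806, plus strand: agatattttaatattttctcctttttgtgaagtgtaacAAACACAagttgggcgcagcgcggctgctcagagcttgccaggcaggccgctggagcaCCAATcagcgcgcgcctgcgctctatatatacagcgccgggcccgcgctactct
Hist1h4h, chr13:23530894-23531043, plus strand: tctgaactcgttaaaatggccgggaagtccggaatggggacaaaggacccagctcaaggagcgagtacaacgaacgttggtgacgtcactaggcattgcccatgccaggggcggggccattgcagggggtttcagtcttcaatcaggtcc

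Depth was similar across tissues, with 13606756 to 19205640 reads assigned to genes per library. The library size behind the FPKM values was not this depth: it was 0.694 to 0.765 times the reads in genes in liver, 0.854 to 1.01 times in BAT, 1.02 to 1.33 times in iWAT and 1.14 to 1.41 times in eWAT, so differences between tissues depend on the authors' scaling, and they are also given on the TPM scale where that matters. The histone cluster genes took 2820 to 12171 of these reads, or 0.0187% to 0.0668% of a library, and 24 to 45 of the 67 genes had at least 1 read in a given library. Each tissue carried its own markers. Alb, the plasma protein albumin made by hepatocytes, had a median of 45730 FPKM in liver, Ucp1, the uncoupling protein of brown fat, had a median of 2791 FPKM in BAT, and Adipoq, the adipocyte hormone adiponectin, had medians of 2828 FPKM in iWAT, 1483 FPKM in eWAT and 633 FPKM in BAT. Some libraries stood apart from their group. AF library 2 of iWAT had a summed histone level of 590 FPKM, above all V libraries of iWAT (436 to 577 FPKM), while the other 3 AF libraries were below them. It also had 0.0847% of its reads on rRNA genes, against 0.229% to 0.247% in the other AF libraries and 0.0684% to 0.121% in the vehicle libraries. AF library 1 of eWAT and AF library 1 of BAT had the highest histone sums of their tissues. Results that rest on these libraries are given below with and without them.

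Over all 8 libraries of a tissue and on the authors' scaling, BAT had the most detected histone cluster genes and liver the fewest. The counts depend on that scaling, and more genes were detected in eWAT on the TPM scale, as given in the closing section. At a mean of 0.5 FPKM or more, 26 of 67 were detected in BAT, against 20 in iWAT, 17 in eWAT and 10 in liver. Without AF library 1, BAT had 19. Of these, 28 were detected in at least 1 tissue and 8 in all 4, and 7 had no read in any library. Among the 6 linker genes, Hist1h1c was detected in every tissue and Hist1h1e in the fat depots alone, while the other 4 (Hist1h1a, Hist1h1b, Hist1h1d and Hist1h1t) stayed below 0.5 FPKM everywhere. H4 genes were detected most often, with 8 of 13, followed by H2B with 9 of 18, H3 with 5 of 12 and H2A with 4 of 18. Near the threshold, Hist1h2bf had 0.631 FPKM and Hist1h2bh 0.402 FPKM in iWAT, Hist1h3d 0.580 FPKM and Hist1h3f 0.430 FPKM in eWAT, Hist1h4m 0.557 FPKM and Hist1h4c 0.476 FPKM in liver, and Hist1h3i 0.520 FPKM and Hist1h2bh 0.491 FPKM in BAT. Near-identical copies limit these counts: 31 of the 67 genes shared at least 50% of their 75-base stretches with other annotated transcripts, and 24 overlapped exons of other genes. Values of such genes are uncertain, since the kit kept no strand and the handling of reads that match several copies is not given in the sources used here.

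**Figure D1:**
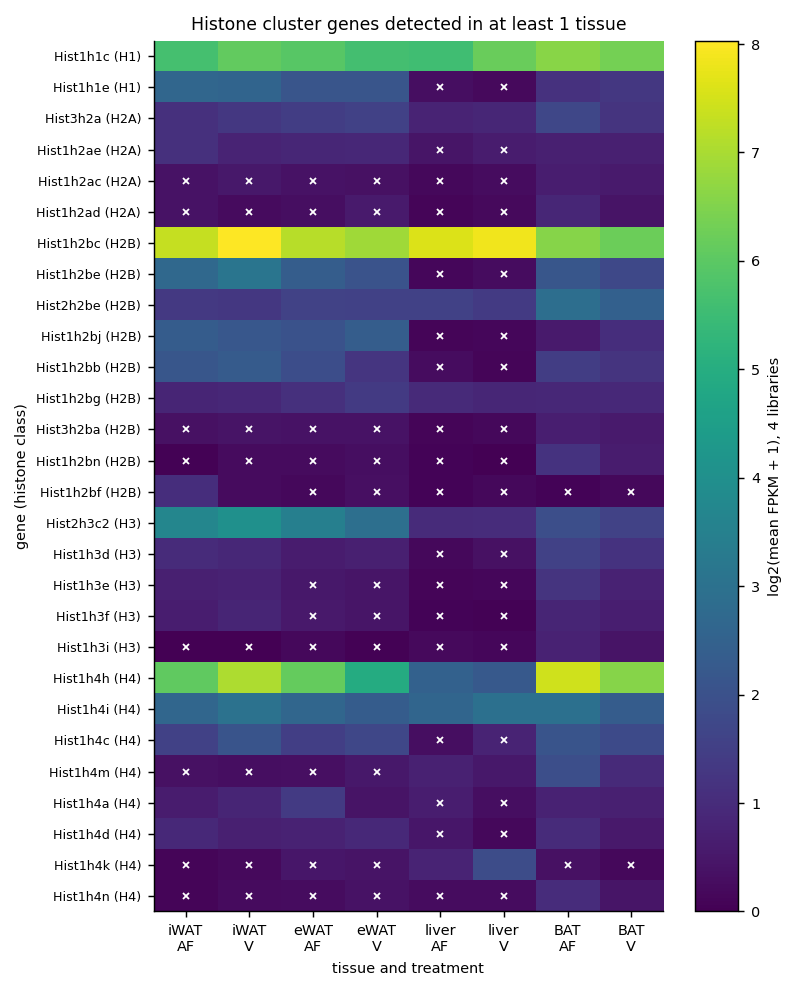
Mean level of the 28 genes detected in at least 1 tissue, as log2(mean FPKM + 1) over 4 libraries, with genes ordered by class down the page and AF left of V in each tissue; a white cross marks a gene with a mean under 0.5 FPKM over the 8 libraries of that tissue. Hist1h2bc, Hist1h4h and Hist1h1c stand out, Hist1h4h is low in liver, and most crosses are in liver.

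A handful of genes carried nearly all of the signal. Hist1h2bc (H2B), Hist1h4h (H4) and Hist1h1c (H1) together made up 93.7% of the summed FPKM of the 67 genes in liver, 88.0% in BAT, 86.5% in iWAT and 84.6% in eWAT (means of 8 libraries). Over the 32 libraries Hist1h2bc averaged 159 FPKM, Hist1h4h 71.7 FPKM and Hist1h1c 65.2 FPKM. The next genes in order were Hist2h3c2 (H3) at 6.34 FPKM, Hist1h4i (H4) at 5.56 FPKM, Hist1h2be (H2B) at 3.34 FPKM, Hist2h2be (H2B) at 2.66 FPKM and Hist1h1e (H1) at 2.49 FPKM. The largest contributor changed with the tissue. Hist1h2bc held 49.9% of the sum in iWAT, 47.7% in eWAT and 72.4% in liver, whereas in BAT Hist1h4h led with 35.1%, followed by Hist1h1c with 27.3% and Hist1h2bc with 25.6%. No H2A gene reached this range: Hist3h2a, the highest, averaged 1.43 FPKM. The summed FPKM of the H2A cluster genes was 4.00 ± 0.391 in V eWAT, against 131 ± 18.5 for H2B (SD, n = 4). In V livers the sums were 2.43 ± 0.357 for H2A and 234 ± 14.8 for H2B. Among the H2A genes, Hist2h2aa1 and Hist2h2aa2 share 100% of their 75-base stretches with other transcripts and Hist1h2ap 92.6%, and all of these were listed at 0 reads. The part of shared sequence in the H2A sums was not tested.

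Linker genes made up a share of the signal that varied with tissue. Their share of the summed FPKM was 27.9% in BAT, 22.0% in eWAT, 20.02% in liver and 15.6% in iWAT (means of 8 libraries). Its range over libraries was 18.31% to 33.0% in BAT and 12.0% to 18.28% in iWAT, so these depots nearly met, while eWAT with 15.8% to 27.6% and liver with 15.6% to 24.3% overlapped with each of them. Hist1h1c accounted for at least 90.1% of the linker sum in every group of libraries.

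**Figure D2:**
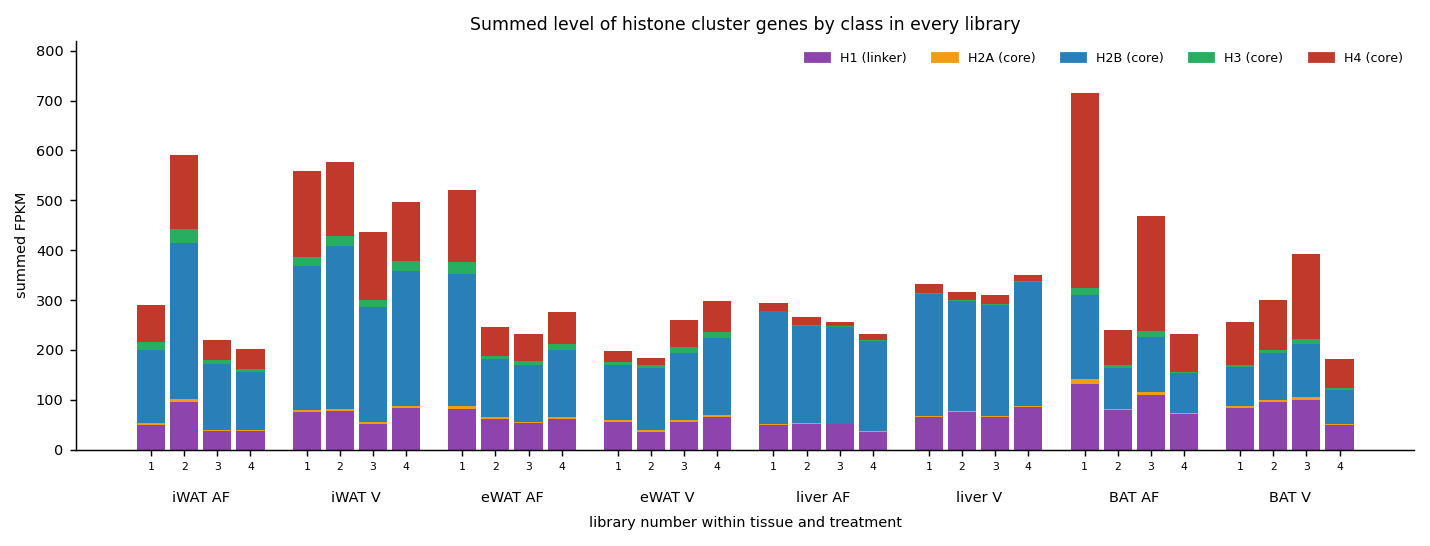
Summed FPKM of the 67 genes in each of the 32 libraries, stacked by histone class, with AF left of V in each tissue and the library number under each bar. On average H2B is the largest class in iWAT, eWAT and liver and H4 in BAT, H2A is barely visible, and AF library 2 of iWAT and AF library 1 of eWAT and of BAT stand above the others of their groups.

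Tissues were compared in the vehicle libraries, where 18 of the genes passed the filter of a mean of 0.5 FPKM or more over the 16 libraries and were tested with limma on log2(FPKM + 1), with Benjamini-Hochberg adjustment over all 14339 genes tested. A log2 difference is the first tissue minus the second, and on this scale differences of genes at low levels are understated. In these bulk samples, fewer cells of a type and less RNA per cell cannot be told apart.

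In liver, more histone cluster genes were lower than higher relative to each fat depot. Against iWAT, 10 of 18 were lower and 1 was higher in liver, where 69.5% of all genes tested passed, 33.7% lower and 35.8% higher. Against eWAT, 10 were lower and 4 higher, where 71.9% of all genes passed, 34.5% lower and 37.4% higher. Against BAT, 8 were lower and 3 higher, where 63.1% of all genes passed, 31.8% lower and 31.4% higher. The median difference of the 18 genes was -0.46 against iWAT, -0.57 against eWAT and -0.48 against BAT, while the median of all genes tested was 0.01, 0.04 and -0.01 in the same order. The filter also admits genes through the tissue where they are high: 7 of the 18 were under 0.5 FPKM in V livers, against 2 in each of V iWAT, V eWAT and V BAT, and Hist1h4k, among the higher ones in each comparison, was at 0.5 FPKM or more in V livers alone. The share of members that passed in either direction was near that of all genes, while their calls were mostly on the lower side. On the TPM scale, which rescales each library to the same sum, the median of all genes shifted to -0.62 against iWAT, -0.98 against eWAT and -0.32 against BAT. The counts were then 1 higher and 15 lower, 1 higher and 14 lower, and 2 higher and 11 lower, in the same order. Of the 14339 genes in all, 2756, 2094 and 3057 were higher and 8159, 9775 and 6301 lower.

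Hist1h4h, the most abundant H4 gene, showed the widest gap between tissues. It had 4.01, 2.605, 6.93 and 1.36 FPKM in V livers, against 161, 136, 124 and 104 FPKM in V iWAT, 78.9, 87.8, 156 and 52.8 FPKM in V BAT, and 13.5, 10.7, 42.1 and 51.9 FPKM in V eWAT. Every liver was below every fat library. The log2 difference was -4.93 ± 0.47 (SE) between liver and iWAT (limma, adjusted p = 1.37e-07) and -4.36 ± 0.47 between liver and BAT (limma, adjusted p = 6.64e-07). Other H4 genes differed in part. Hist1h4c was also lower in liver than in each fat depot, with -1.32 ± 0.30 against iWAT (limma, adjusted p = 0.00113), and Hist1h4d was lower than in iWAT and eWAT. Hist1h4i had 8.19, 7.34, 6.27 and 5.53 FPKM in V livers, against 2.99, 5.56, 5.73 and 1.76 FPKM in V BAT and 6.43, 7.59, 6.38 and 8.21 FPKM in V iWAT. On the deposited scale it was higher in liver than in BAT and eWAT and did not pass the test against iWAT. Neither call held on the TPM scale, where the difference was 0.45 against BAT and -0.36 against eWAT, or after quantile normalisation.

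Hist1h4k had its highest level in liver, and it entered the tests only through liver, being under 0.5 FPKM in every fat depot. It had 3.87, 2.52, 2.35 and 1.76 FPKM in V livers, against 0, 0, 0.557 and 0 FPKM in V iWAT, 0.801, 0, 0.413 and 0.150 FPKM in V eWAT, and 0.240, 0, 0.234 and 0 FPKM in V BAT. All V livers were above all V fat libraries, which is given as a description. These levels rest on 40 reads in the 4 V livers together and on 3, 10 and 2 reads in V iWAT, eWAT and BAT. Hist1h4k is annotated over its 312 coding bases alone, and 68.1% of its 75-base stretches occur in other genes.

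Hist1h2bc, the H2B gene that is spliced to a poly(A) signal, was lowest in BAT. It had 70.0, 79.0, 94.6 and 54.2 FPKM in V BAT, against 270.1, 304, 214 and 253 FPKM in V iWAT, 97.0, 114, 121 and 139 FPKM in V eWAT, and 241, 216, 218 and 245 FPKM in V livers. The V BAT libraries lay below all V libraries of the other tissues. The log2 difference was -1.81 ± 0.16 between BAT and iWAT (limma, adjusted p = 2.68e-07) and -0.67 ± 0.16 between BAT and eWAT (limma, adjusted p = 0.00251), and liver was 1.64 ± 0.16 above BAT (limma, adjusted p = 2.05e-07). Over all alternatives the adjusted p reached 0.0975 for BAT against iWAT and 0.160 for BAT against eWAT (limma), so neither call held throughout. Between liver and iWAT it did not pass the test on the deposited scale, with -0.17 ± 0.16, but was lower in liver on the TPM scale, with -0.94 ± 0.16 (limma, adjusted p = 7.49e-05). Between liver and eWAT the difference of 0.97 ± 0.16 (limma, adjusted p = 5.82e-05) was -0.23 on the TPM scale and -0.10 after quantile normalisation, so its direction depended on the scaling.

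Hist1h1c, which encodes linker histone H1.2, had means between 49.1 and 80.2 FPKM in the V libraries of the 4 tissues. It had 82.3, 92.3, 97.8 and 48.4 FPKM in V BAT, 64.4, 74.9, 65.0 and 84.2 FPKM in V livers, 70.1, 72.2, 46.7 and 79.5 FPKM in V iWAT, and 52.4, 31.4, 51.8 and 60.6 FPKM in V eWAT. Neighbours in this order overlapped. It passed the test in BAT against eWAT and in liver against eWAT, higher each time, and not in the other 4 comparisons. Both directions turned on the TPM scale, to -0.12 (limma, adjusted p = 0.700) and -0.62 (limma, adjusted p = 0.0363), and neither passed after quantile normalisation. Hist1h1e, which encodes H1.4, followed another order. It had 0.156, 0.0906, 0.211 and 0.142 FPKM in V livers, against 4.51, 5.47, 5.14 and 4.86 FPKM in V iWAT, 2.03, 3.16, 3.68 and 4.48 FPKM in V eWAT, and 0.971, 2.06, 2.20 and 0.700 FPKM in V BAT. All livers were below all fat libraries, and liver differed from iWAT by -2.38 ± 0.20 (limma, adjusted p = 2.07e-08) and from eWAT by -1.88 ± 0.20 (limma, adjusted p = 3.34e-07). BAT was below iWAT by -1.32 ± 0.20 (limma, adjusted p = 4.68e-05). Liver thus held 99.1% of its linker signal in Hist1h1c in the vehicle group, against 92.75% in iWAT.

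Hist2h3c2, an H3.2 gene, and Hist1h2be, an H2B gene, had their highest means in iWAT and their lowest in liver. Hist2h3c2 had 1.33, 1.46, 1.04 and 0.359 FPKM in V livers, against 15.8, 17.4, 11.2 and 17.1 FPKM in V iWAT, 4.21, 2.88, 9.70 and 9.84 FPKM in V eWAT, and 1.69, 2.04, 3.01 and 1.32 FPKM in V BAT. Liver and BAT overlapped for this gene, and their difference did not pass the test, while liver differed from iWAT by -3.02 ± 0.30 (limma, adjusted p = 2.40e-07). Of the 75-base stretches of Hist2h3c2, 62.6% occur in other genes, so its level is uncertain. The H3 genes Hist2h3c1 and Hist2h3b share 100% of theirs with other transcripts and were listed at 0 reads. Hist1h2be had 0.271, 0.256, 0.110 and 0.185 FPKM in V livers, against 8.10, 9.10, 6.96 and 6.44 FPKM in V iWAT, 2.10, 3.29, 3.40 and 3.80 FPKM in V eWAT, and 1.5003, 3.18, 3.03 and 1.79 FPKM in V BAT. Liver was below every fat library, by -2.83 ± 0.17 on the log2 scale against iWAT (limma, adjusted p = 4.37e-10). Exons of Hist1h2be overlap Hist1h1e, on the same strand, so reads there cannot be told apart.

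Hist2h2be had its highest level in BAT. It had 4.32, 5.16, 3.96 and 4.56 FPKM in V BAT, against 1.80, 0.912, 1.95 and 1.17 FPKM in V iWAT, 2.32, 1.87, 1.51 and 1.98 FPKM in V eWAT, and 1.70, 1.57, 2.08 and 1.05 FPKM in V livers. The 4 BAT libraries were above all other V libraries, and the other tissues overlapped each other. BAT was above iWAT by 1.18 ± 0.15 (limma, adjusted p = 1.05e-05) and above eWAT by 0.92 ± 0.15 (limma, adjusted p = 9.74e-05), and liver was below BAT by -1.09 ± 0.15 (limma, adjusted p = 9.63e-06). On the TPM scale the difference from eWAT was 0.37 and did not pass.

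Among the fat depots, the histone cluster genes that passed were lower in eWAT, and with 1 exception lower in BAT, than in iWAT. In eWAT 7 of 18 were lower than in iWAT and none was higher, where 46.2% of all genes passed, 24.8% lower and 21.4% higher. The 7 were Hist1h2bc, Hist1h2be, Hist1h4h, Hist2h3c2, Hist1h2bb, Hist1h4i and Hist1h1e, and Hist1h4h had the widest difference, -2.39 ± 0.47 (limma, adjusted p = 0.000857). In BAT 7 were lower than in iWAT and 1, Hist2h2be, was higher, where 50.1% of all genes passed, 25.7% lower and 24.4% higher. Between BAT and eWAT 4 were higher in BAT (Hist2h2be, Hist1h4h, Hist1h1c and Hist1h3d) and 4 lower (Hist1h2bj, Hist1h1e, Hist1h2bc and Hist2h3c2), where 53% of all genes passed, 25.3% higher and 27.8% lower. Of the 18 genes, 1 was at 0.5 FPKM or more in V BAT alone, so the filter admitted it through BAT. Scaling mattered: on the TPM scale the median of all genes shifted to 0.32 for eWAT against iWAT and to -0.69 for BAT against eWAT. The member counts became 4 higher and 4 lower for the first, where 6150 of 14339 genes in all were higher and 1374 lower. They became 0 higher and 10 lower for the second, where 1298 of all genes were higher and 8957 lower. The same contrasts made with AF libraries in place of V gave 0 of 19 members between eWAT and iWAT, where 10.6% of all genes passed. Hist1h4h then differed by 0.16, turned in direction.

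**Figure D3:**
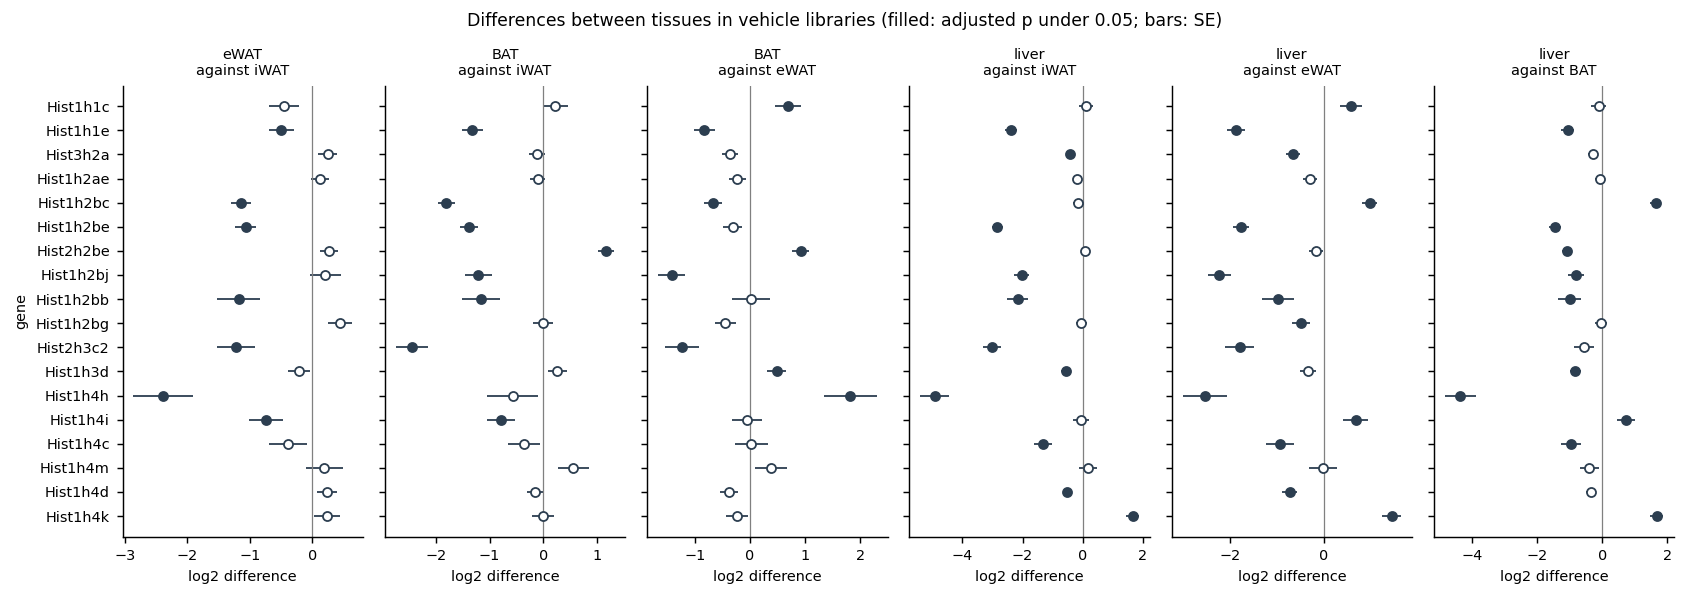
Log2 difference ± SE between tissues for the 18 genes tested, in the 4 vehicle libraries of each tissue, with the first tissue named minus the second; filled points passed at an adjusted p under 0.05. Hist1h4h lies furthest left in all 3 liver panels, Hist1h4k and Hist1h2bc reach furthest right against BAT, and Hist2h2be is to the right where BAT is set against iWAT and eWAT.

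Genes of DNA replication were also compared. Of 30 genes of DNA replication and cell division, 28 were tested, and in eWAT 16 were higher and 2 lower than in iWAT, with Mcm6, a subunit of the replicative helicase, 1.41 ± 0.23 higher (limma, adjusted p = 0.000160) and Mki67, a marker of dividing cells, at 3.85 FPKM in V eWAT and 1.03 FPKM in V iWAT, where 46.2% of all genes passed. On the TPM scale 20 were higher and none lower, where 6150 of 14339 genes in all were higher and 1374 lower. In BAT 10 of the 28 replication genes were lower and 1 higher than in iWAT, and in liver 11 were lower and 6 higher than in iWAT, where 50.1% and 69.5% of all genes passed. Of all genes, 25.7% were lower and 24.4% higher in BAT, and 33.7% lower and 35.8% higher in liver. TPM scaling gave 17 lower and 0 higher in BAT, and 20 lower and 4 higher in liver. Of all 14339 genes, 6002 and 8159 were then lower and 1936 and 2756 higher. Of 15 genes for transcription, processing and decay of histone mRNA, 11 were tested. Slbp, the stem-loop binding protein, had 4.13 FPKM in V BAT and 2.68 FPKM in V iWAT, a difference of 0.48 ± 0.08 (limma, adjusted p = 0.000211), and did not pass in liver or eWAT against iWAT. After TPM scaling 0 of these 11 genes were higher in BAT than in iWAT and 4 were lower. The call of Slbp as higher in BAT thus did not hold on that scale. Upf1, a helicase used in histone mRNA decay, was higher in liver than in iWAT by 1.17 ± 0.10 (limma, adjusted p = 2.27e-08). Of 20 histone chaperone genes, 18 were tested, and in liver 5 were higher and 5 lower than in iWAT, where 69.5% of all genes passed. With TPM scaling the chaperone counts became 1 higher and 14 lower, where 2756 of 14339 genes in all were higher and 8159 lower. Macrophage markers also differed between the depots, with summed levels of 332 to 837 FPKM in V eWAT and 49.5 to 104 FPKM in V iWAT over 6 genes, and their part in these differences was not tested.

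Variants listed as replication-independent, which lie outside the clusters, had V means from 0.160 FPKM (H1fx in liver) to 103.9 FPKM (H1f0 in liver). All 11 were tested. H1f0, the linker variant of non-dividing cells, had 103.9 FPKM in V livers, against 40.3 FPKM in V iWAT, a difference of 1.33 ± 0.14 (limma, adjusted p = 2.68e-07). H1fx, another linker variant, had 0.160 FPKM in V livers, against 17.7 FPKM in V iWAT, a difference of -3.98 ± 0.29 (limma, adjusted p = 5.03e-09). H2afy, which encodes macroH2A1, was higher in liver than in iWAT by 1.11 ± 0.07 (limma, adjusted p = 3.10e-10), and H3f3b, a gene for H3.3, by 1.00 ± 0.14 (limma, adjusted p = 8.97e-06). In all, 4 of the 11 were higher and 2 lower in liver than in iWAT. Of all genes tested, 69.5% passed, 35.8% higher and 33.7% lower. TPM scaling turned the counts of variants to 2 higher and 4 lower, where 2756 of 14339 genes in all were higher and 8159 lower. H2afz, which encodes H2A.Z, had 46.7 FPKM in V livers and 42.2 FPKM in V iWAT and did not pass.

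Auranofin was then compared with vehicle within each tissue, to ask whether the drug moved histone expression. No histone cluster gene passed in any tissue. Of the genes tested, 0 of 10 passed in liver, 0 of 20 in iWAT, 0 of 17 in eWAT and 0 of 26 in BAT, where the share of all genes that passed was 0%, 0%, 0% and 0.023% in the same order (limma with Benjamini-Hochberg adjustment). At an unadjusted p under 0.05 there were 3, 3, 3 and 2 members (793, 2895, 1585 and 1459 of all genes), and voom on the rebuilt reads gave 0 in each tissue. Sample quality weights gave 8 of 20 lower in iWAT, where 46.3% of all genes passed, and 0 in the other tissues. The median log2 change of the members tested was -0.09 in liver, -0.19 in iWAT, 0.04 in eWAT and 0.27 in BAT, against -0.01, -0.02, 0.0029 and 0.02 over all genes tested. The filter admitted 5 of the 26 members in BAT, and 1 in each other tissue, only through their AF libraries. Without AF library 1 of BAT the median there was 0.12 over 19 members, against 0.02 over all genes. TPM scaling shifted the median of all genes to 0.23 in iWAT and -0.14 in eWAT, and to -0.02 in liver and -0.10 in BAT.

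**Figure D4:**
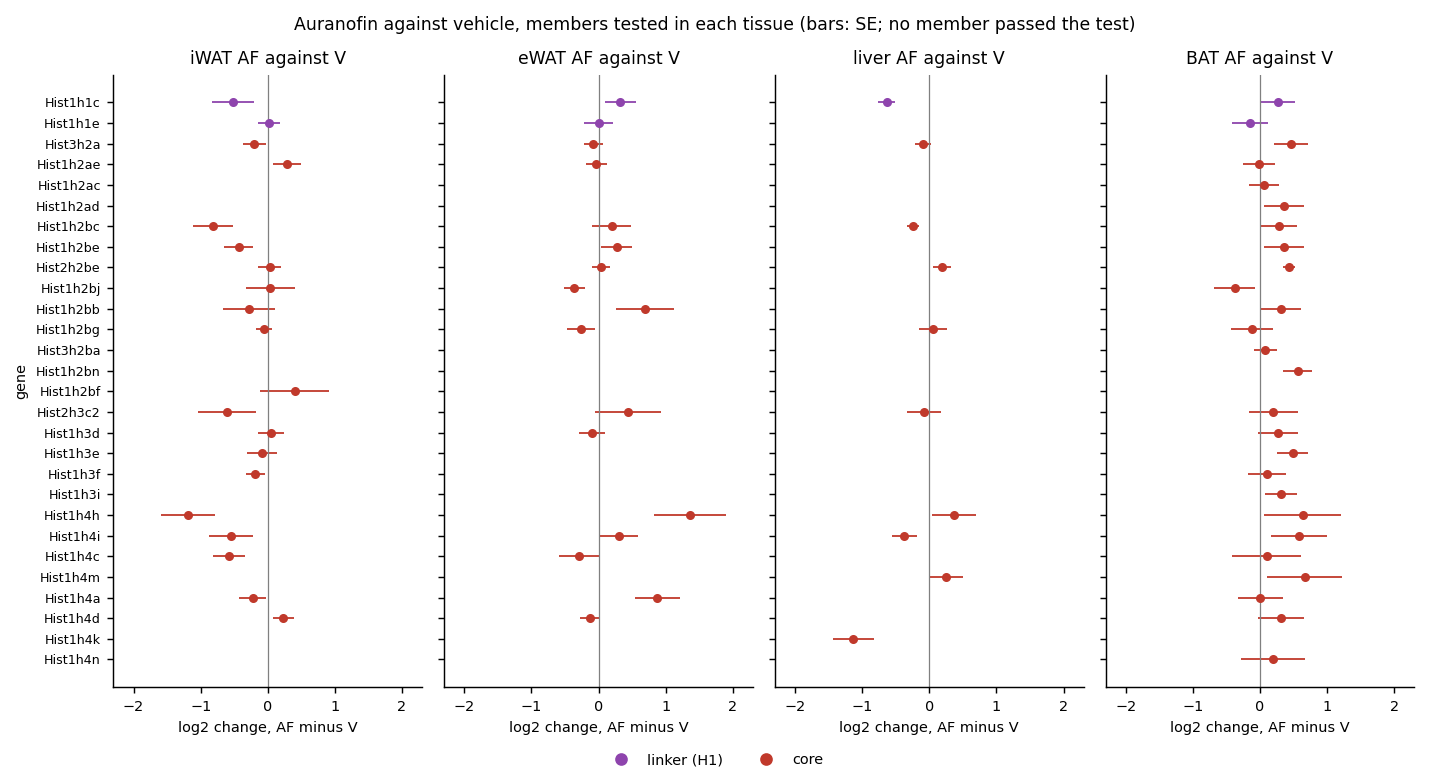
Log2 change ± SE of AF minus V for every member tested in each tissue, with linker genes in purple and core genes in red. Hist1h4h has the lowest change in iWAT and the highest in eWAT, Hist1h1c and Hist1h4k are furthest left in liver, and no point passed the test.

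In liver 2 genes, the linker gene Hist1h1c and the core gene Hist1h4k, had groups that did not overlap. Hist1h1c had 48.2, 50.1, 50.7 and 35.7 FPKM in AF livers, against 64.4, 74.9, 65.0 and 84.2 FPKM in V livers. Every AF liver was below every V liver, and the log2 change was -0.64 ± 0.13 (limma, adjusted p = 0.711). The summed linker level was 46.7 ± 7.24 FPKM in AF livers and 72.8 ± 9.46 FPKM in V livers (SD, n = 4 each), a ratio of 0.642, almost all of it Hist1h1c. The core sum was 216 ± 21.4 FPKM in AF livers and 254 ± 13.9 FPKM in V livers, a ratio of 0.848, and 3 of the 4 AF livers were below all V livers. The linker share of the summed FPKM was 17.8% in AF livers and 22.2% in V livers. Hist1h4k had 1.41, 1.28, 0 and 0.254 FPKM in AF livers, against 3.87, 2.52, 2.35 and 1.76 FPKM in V livers. These values came from 11 and 40 reads in all, and the log2 change was -1.13 ± 0.30 (limma, adjusted p = 0.790). Groups without overlap were found for 2 of 10 members in liver and for 3.72% of all genes tested. The counts were 0 of 20 members in iWAT and 0 of 17 in eWAT, where 5.18% and 6.95% of all genes had no overlap. Hist1h2bc had 222, 190.3, 190.5 and 178 FPKM in AF livers, against 241, 216, 218 and 245 FPKM in V livers, with a log2 change of -0.24 ± 0.09 (limma, adjusted p = 0.790). In liver the medians of protein-coding genes binned by length lay between -0.03 and 0.03, and rRNA genes took 0.0543% to 0.184% of reads in AF livers and 0.0762% to 0.153% in V livers. Macrophage markers summed to 23.3 to 33.9 FPKM in AF livers and 17.1 to 25.9 FPKM in V livers over 6 genes, and skeletal muscle markers to 1.24 to 1.42 FPKM in AF livers and 0.716 to 1.12 FPKM in V livers over 5 genes. The part of these features in the histone values was not tested.

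In iWAT the most abundant genes were lower in 3 of the 4 AF libraries. Hist1h2bc had 132, 285, 116 and 104 FPKM in AF iWAT, against 270.1, 304, 214 and 253 FPKM in V iWAT, with a log2 change of -0.82 ± 0.30 (limma, adjusted p = 0.204). Hist1h4h had 64.3, 132, 33.6 and 34.7 FPKM in AF iWAT, against 161, 136, 124 and 104 FPKM in V iWAT, with a log2 change of -1.19 ± 0.40 (limma, adjusted p = 0.204). In both genes AF libraries 1, 3 and 4 were below all V libraries, and AF library 2 lay within the V range. Hist1h1c had 46.2, 87.9, 32.4 and 32.7 FPKM in AF iWAT, against 70.1, 72.2, 46.7 and 79.5 FPKM in V iWAT, and AF library 2 was the highest of the 8. Hist2h2be overlapped fully, at 1.62, 0.952, 1.59 and 1.81 FPKM in AF iWAT and 1.80, 0.912, 1.95 and 1.17 FPKM in V iWAT. The core sum was 270.2 ± 153 FPKM in AF iWAT and 445 ± 56.1 FPKM in V iWAT, a ratio of 0.608, and the linker sum was 55.3 ± 27.8 FPKM in AF iWAT and 72.4 ± 13.9 FPKM in V iWAT, a ratio of 0.764. Without AF library 2, 8 of 19 members were lower and none was higher, and 36.4% of all genes passed. Hist1h2bc then had a log2 change of -1.14 (limma, adjusted p = 0.00144) and Hist1h4h of -1.59 (limma, adjusted p = 0.00264). Over all alternatives the adjusted p of these genes lay between 0.00122 and 0.458 in iWAT. Leaving AF library 2 out turned the log2 ratio of the core sums to -1.19, against -0.72 with it, and that of the linker sums to -0.79, against -0.39.

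Other features of the iWAT libraries moved along with these values. AF libraries 1, 3 and 4 had 0.229% to 0.247% of reads on rRNA genes, against 0.0684% to 0.121% in V libraries. Values also moved with gene length in AF iWAT: the median log2 change was -0.65 over 42 protein-coding genes of up to 500 bases, -0.50 over 290 genes of 500 to 1000 bases, -0.09 over 3687 genes of 2000 to 4000 bases and 0.07 over 6277 longer ones. The histone genes are short, with a median length of 539 bases. Adipocyte markers summed to 7212 to 13330 FPKM in AF iWAT and 11210 to 11940 FPKM in V iWAT over 6 genes. Other marker sums also differed in their medians, with 368 FPKM in AF and 740 FPKM in V iWAT for B cells, 324 FPKM in AF and 612 FPKM in V for red blood cells, 146 FPKM in AF and 336 FPKM in V for hepatocytes, and 7.31 FPKM in AF and 25.6 FPKM in V for neutrophils. The part of these features in the histone values was not tested.

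In eWAT 10 of 17 members had a change above 0, as had 6972 of 13847 genes in all. In eWAT Hist1h4h had 129, 49.1, 45.9 and 53.7 FPKM in AF libraries, against 13.5, 10.7, 42.1 and 51.9 FPKM in V libraries, with a log2 change of 1.36 ± 0.54 (limma, adjusted p = 0.429). The groups overlapped, and without V libraries 1 and 2 the change was 0.42 (limma, adjusted p = 0.9999, with 0.0906 to 0.9999 over all alternatives). Hist1h2bc had 246, 104, 104 and 119.9 FPKM in AF eWAT, against 97.0, 114, 121 and 139 FPKM in V eWAT, so AF library 1 alone was above the V range. Hist1h4a, at a low level, had 2.12, 2.97, 0.817 and 0.432 FPKM in AF eWAT, against 0.0773, 0, 0.638 and 0.606 FPKM in V eWAT, with a log2 change of 0.88 ± 0.33 (limma, adjusted p = 0.429). The core sum was 254 ± 124 FPKM in AF eWAT and 183 ± 43.8 FPKM in V eWAT, and the linker sum was 64.4 ± 12.6 FPKM in AF eWAT and 52.7 ± 12.7 FPKM in V eWAT. Without AF library 1 the log2 ratio of the core sums was 0.08, against 0.48 with it. Macrophage markers summed to 144 to 381 FPKM in AF eWAT and 332 to 837 FPKM in V eWAT, and short genes of 500 to 1000 bases had a median log2 change of 0.30. The share of reads on rRNA genes was 0.0796% to 0.643% in AF eWAT and 0.0134% to 0.214% in V eWAT. The part of these features in the histone values was not tested.

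In BAT, 5 of the 26 members tested reached 0.5 FPKM only through the AF libraries, and of the other 21, 18 had a higher mean in AF than in V. Without AF library 1, 13 of 19 members had a change above 0, as had 7236 of 13044 genes in all. Hist2h2be had 6.45, 5.70, 6.65 and 6.83 FPKM in AF BAT, against 4.32, 5.16, 3.96 and 4.56 FPKM in V BAT, and the groups did not overlap. Its log2 change was 0.43 ± 0.09 (limma, adjusted p = 0.212), and groups without overlap were found for 1 of 26 members and for 5.33% of all genes. Hist1h4h had 351, 62.5, 216 and 70.7 FPKM in AF BAT, against 78.9, 87.8, 156 and 52.8 FPKM in V BAT, and AF libraries 1 and 3 were above all V libraries while the other 2 lay within their range. Hist1h1c had 128, 77.9, 108 and 71.1 FPKM in AF BAT, against 82.3, 92.3, 97.8 and 48.4 FPKM in V BAT, and the same AF libraries were the highest. The core sum was 316 ± 202 FPKM in AF BAT and 200.4 ± 68.1 FPKM in V BAT, and the linker sum was 98.1 ± 27.5 FPKM in AF BAT and 82.2 ± 22.8 FPKM in V BAT. Without AF library 1 the log2 ratio of the core sums was 0.17, against 0.66 with it. Skeletal muscle markers summed to 2.59 to 2112 FPKM in AF BAT and 2.90 to 519 FPKM in V BAT over 5 genes, and macrophage markers to 13.1 to 26.6 FPKM in AF BAT and 24.2 to 47.1 FPKM in V BAT. Short protein-coding genes had a median log2 change of 0.15 up to 500 bases and 0.18 from 500 to 1000 bases, against -0.01 over 4000 bases. The part of these features in the histone values was not tested.

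**Figure D5:**
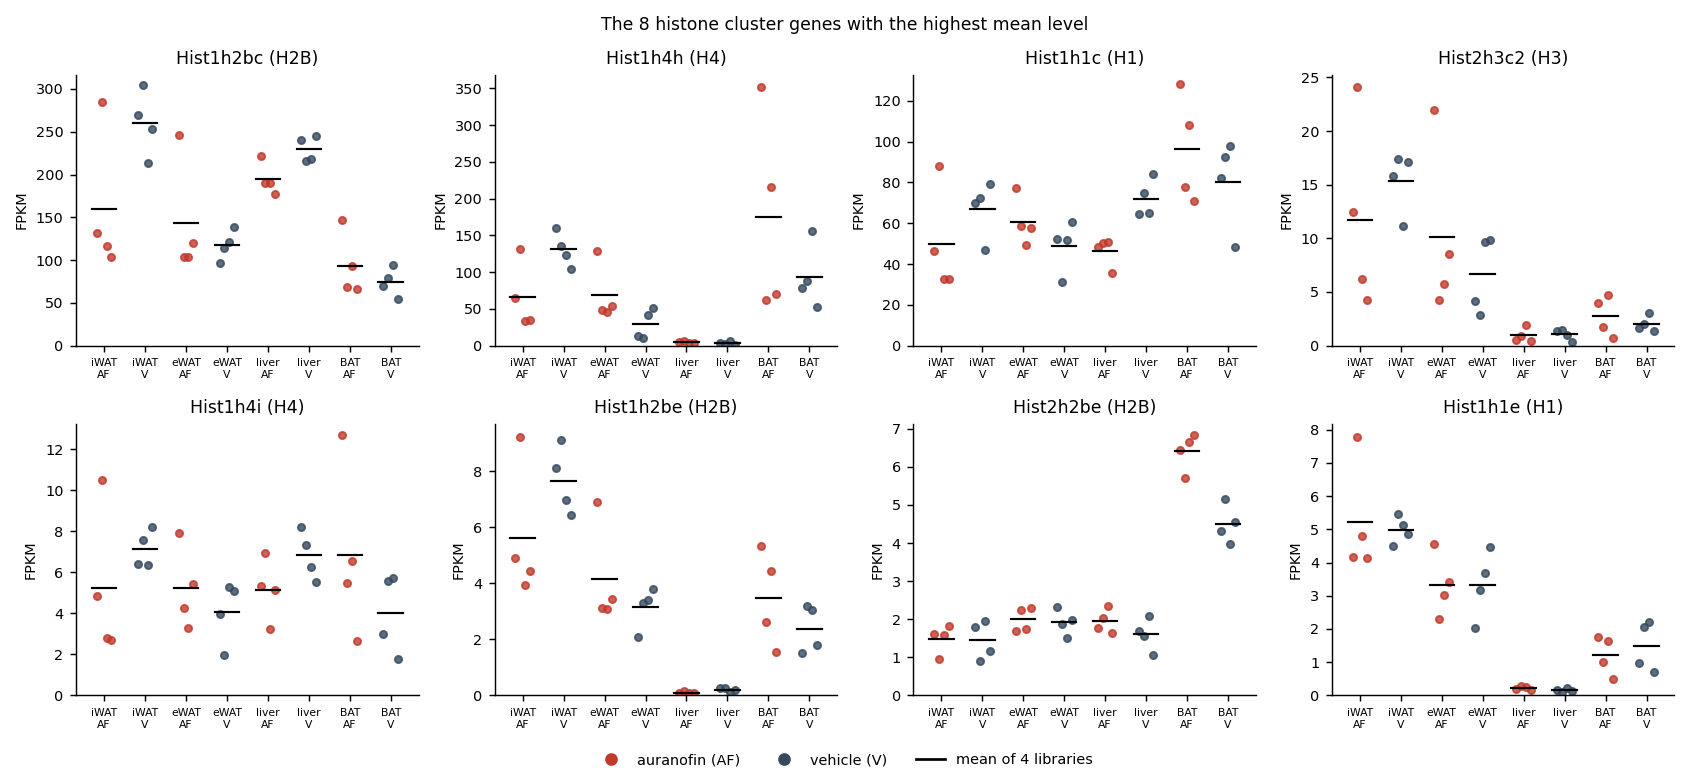
Level in FPKM of the 8 genes with the highest means in each of the 32 libraries, with AF in red left of V in dark blue and a line at the mean of 4. Hist1h1c in liver and Hist2h2be in BAT have groups that do not overlap, AF library 2 of iWAT lies within or above the range of the vehicle libraries of iWAT, and Hist1h4h in BAT runs from 52.8 to 351 FPKM.

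Whether the change with auranofin differed between tissues was tested directly. No member passed for eWAT minus iWAT (0 of 19), eWAT minus BAT (0 of 21), iWAT minus BAT (0 of 20) or liver minus the mean of the fat depots (0 of 20), where 0%, 0%, 0.0224% and 0% of all genes passed (limma). At an unadjusted p under 0.05 there were 3, 1, 2 and 2 members. Over all genes there were 3219 of 13670, 809 of 13842, 3093 of 13372 and 870 of 14413, in the same order. Hist1h4h had the largest difference of changes, 2.55 ± 0.73 between eWAT and iWAT (limma, adjusted p = 0.177). Without AF library 2 of iWAT, 5 of 18 members were higher in the first of these comparisons and 4 of 21 were lower in the third, where 14.8% and 27.4% of all genes passed. The comparisons share libraries of eWAT, iWAT and BAT.

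Companion genes also gave no calls with auranofin in any tissue. No replication-independent variant passed limma's test (10 to 11 of 11 tested), nor any tested gene of histone mRNA processing (11 to 12 of 15), of the chaperones (17 to 20 of 20) or of DNA replication and cell division (20 to 28 of 30). At an unadjusted p under 0.05 the variants had 0 in liver, 4 in iWAT, 1 in eWAT and 1 in BAT, and the replication genes had 5 of 20, 5 of 27, 12 of 28 and 3 of 21 in the same order. Over all genes there were 793 of 13122, 2895 of 13164, 1585 of 13847 and 1459 of 13067. In liver the median log2 change was -0.04 for the variants and -0.13 for the replication genes, against -0.09 for the histone cluster genes tested. In eWAT 25 of 28 replication genes were below 0, with a median of -0.42, against 6875 of 13847 genes in all, with a median of 0.0029.

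After the tissue means were removed, the genes with high levels varied together over the 32 libraries. Pearson's r of log2(FPKM + 1) between Hist1h2bc, Hist1h4h, Hist1h1c and Hist2h3c2 lay between 0.649 and 0.817. Among 14412 genes, those most like Hist1h2bc were 9130401M01Rik, Mpc2 and Sap18 (r of 0.911 to 0.916), those most like Hist1h4h were Psph, Nfu1 and Psmd3 (0.872 to 0.887), and those most like Hist1h1c were Slc25a3, Psmb5 and Fbxo6 (0.841 to 0.861). None of these was a histone gene, and all values share the same libraries and their scaling, so r is a description only.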

How the data were processed

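The deposited table gives FPKM per gene and library, computed by the authors. Named in the submitters' processing notes, without role or order, are mm10, DESeq2 1.20.0, featureCounts 1.5.0-p3, STAR 2.6.1d and CASAVA. Per the labels' protocols, total RNA was made into libraries with the NEBNext Ultra II non-stranded kit; whether poly(A) RNA was selected is not given in the sources used here, and this decides how far histone mRNAs without a tail are captured. FPKM times gene length gave whole reads within 0.1 read for 100% of values, so reads were rebuilt. Tests used limma 3.58.1 (R 4.3.3) with an intensity trend on log2(FPKM + 1), for genes with a mean of 0.5 FPKM or more over the fitted libraries, at a Benjamini-Hochberg adjusted p under 0.05 over all genes tested. AF was compared with V within each tissue, tissues within V, and changes between tissues as interactions. Summed levels have no test. The scripts were tested on simulated data.

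Values in every library are given for the 8 members with the highest mean and for those in the tests printed; tests are given for up to 5 members with the smallest p per comparison. Hist1h4a, Hist1h4c, Hist1h4d and Hist1h4k were added after their values were seen, as were the values of Hist1h1c, Hist1h2bc and Hist1h4i on other scalings. The members, lists and tests were chosen with earlier results of these data known. Sequences are from GENCODE M21 transcripts and, for promoters, RefSeq GRCm38.p6, matched by Entrez ID. Alternatives were other pseudocounts, filters, scalings, weights, voom, a replicate block, 1 fit of all libraries, AF in place of V libraries and leaving out each library. Leaving out V libraries 1 and 2 of eWAT was added after seeing the data. Figures used matplotlib 3.10.9 in Python 3.11.15. The genes most like Hist2h3c2 are not reported here.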

Additional observations from a re-analysis of the deposited data

Results flagged for a closer look

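Of 80 groups of 4 libraries examined (the 8 genes with the highest means and the linker and core sums, in 8 groups each), 7 held a library far from the other 3, where chance gives about 1 in 20. In AF iWAT, Hist1h2bc was 284.8 FPKM in library 2, against 103.9 to 132 FPKM in the others. In AF eWAT, library 1 had 246.3 FPKM of Hist1h2bc, against 103.9 to 119.9 FPKM in the others. The same eWAT library had 128.7 FPKM of Hist1h4h, against 45.9 to 53.7 FPKM, and 6.906 FPKM of Hist1h2be, against 3.08 to 3.43 FPKM. Its summed core level was 438.2 FPKM, against 178 to 214 FPKM. In AF liver, library 4 was the low one, with 35.73 FPKM of Hist1h1c, against 48.2 to 50.7 FPKM in the others. Its summed linker level was 35.96 FPKM, against 49.1 to 51.0 FPKM.

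Hist1h1c had mean differences of opposite sign in liver and eWAT, and neither passed (limma, adjusted p = 0.711 and 0.504): all 4 AF livers were below the mean of the V livers, by 25.9 FPKM on average, and all 4 AF eWAT libraries were above the mean of V eWAT, by 11.8 FPKM on average. The gap between these changes, -37.69 FPKM for liver minus eWAT, was not tested for this pair. The change of Hist1h1c in liver, set against the mean change in fat, did not pass (limma, adjusted p = 0.812).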

How the results depend on the processing

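Counts of members called, both directions together, held within 1.5 times in 262 of 269 alternatives over 14 comparisons. A count of 0 was taken as held where the alternative also gave 0. Direction was not part of this rule. On the TPM scale the directions of the calls for eWAT against iWAT and BAT against eWAT changed, as given above, though their totals held. AF against V in iWAT gave 8 lower with sample quality weights (46.3% of all genes passed) and 0 to 8 when a library was left out. Interactions gave 0 to 5 (eWAT minus iWAT) and 0 to 4 (iWAT minus BAT). With AF in place of V libraries, eWAT against iWAT gave 0 of 19 and liver against eWAT 8 of 19, where 10.6% and 68.6% of all genes passed. With no filter, liver against BAT gave 17 of 58, where 35.7% of all genes passed. Leaving out each library in turn gave 19 to 20, 17, 9 to 12 and 19 to 27 detected members for iWAT, eWAT, liver and BAT, and 5 to 7, 7 to 8, 6 to 10, 10 to 12, 12 to 13 and 10 to 12 calls for eWAT–iWAT, BAT–iWAT, BAT–eWAT, liver–iWAT, liver–eWAT and liver–BAT.

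Detection at 0.1 FPKM gave 43 members in BAT, 38 in eWAT, 33 in iWAT and 33 in liver; at 1 FPKM it gave 12 in iWAT and 14 in BAT; on the TPM scale it gave 34 in eWAT. Without Hist1h1c the log2 ratio of linker sums in liver was -0.24. Reversed changes were Hist1h2bb in eWAT, AF against V, at -0.19 with quality weights; Hist1h2bc, liver against eWAT, at -0.23 on the TPM scale and -0.10 after quantile normalisation; Hist1h1c, BAT and liver against eWAT, at -0.12 and -0.62 on the TPM scale; Hist1h4i, liver against eWAT, at -0.36 on the TPM scale; and Hist1h4h, eWAT against iWAT, at 0.16 with AF libraries. The cause was not tested.

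Pairing of same-numbered libraries was not established: in no comparison did every pair correlate over 0.1. In iWAT AF and V, 3 of 4 pairs did, with r from 0.07 to 0.397, as did 3 of 4 in BAT and iWAT V. Asking that every pair pass cannot exclude pairing. The replicate block gave 0 calls in each AF comparison and interaction, and 6, 8, 10, 11, 13 and 11 between tissues in the order above.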
